A study of Mus musculus with 27 samples.

Results

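The genes described here are the members of the MYST family of histone acetyltransferases other than Kat8 (Kat5, Kat6a, Kat6b and Kat7) and 4 deacetylases known to act on acetylated histone H4 lysine 16 (Sirt1, Sirt2, Hdac1 and Hdac2). They were followed after RNA interference (RNAi) against MOF, the protein of Kat8, in mouse embryonic stem (ES) cells. All probesets annotated to the 8 symbols were taken, which gave 9 of 35556 probesets for 8 of 19938 named genes. Hdac1 had 2 probesets and the other genes had 1 each, and all 9 passed the filter on low values (a mean log2 value of at least 6). The study measured total RNA on 27 Affymetrix arrays, 15 from knockdown cells and 12 from cells given a negative control siRNA (Stealth or Silencer). PGK12.1, female ES cells whose mother was 129 and whose father was (129 X PGK)F1, gave 3 arrays with MOF siRNA set against 3 controls. The same line gave 3 arrays with NSL1 siRNA, 3 with MSL1 siRNA and 2 with MOF and MSL1 siRNA together, set against 5 controls lettered A to E. The male lines WD44 (BL6) and E14 (a hybrid of BL6 and Cast) gave 2 MOF arrays and 2 control arrays each. All cells were kept with leukemia inhibitory factor on mouse embryonic fibroblast feeders, which were depleted on gelatin before RNAi. They received 100 pmol of siRNA for 48 h. In PGK12.1 MOF experiments 1 and 2, knockdown and control cells were treated again with 400 pmol for 24 h. For the double target, 50 pmol of Msl1 siRNA was added. Each knockdown array was set against the control array of the same number or letter. The NSL1 and MSL1 arrays of experiment C shared 1 control, and the NSL1 and double-target arrays shared the controls of experiments D and E, so these comparisons are not independent of each other.

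MYST enzymes transfer acetyl groups to histone tails and work in complexes that set their substrate. MOF, in the MSL and NSL complexes, is the main acetyltransferase of H4 lysine 16 in mammalian cells, and its loss removes most of this mark. Kat5 (TIP60) acetylates H4 and H2A within a large remodelling complex that ES cells need for their identity. Kat6a (MOZ), Kat6b (MORF) and Kat7 (HBO1) act mainly on histone H3, Kat7 also on H4, with BRPF or JADE scaffolds. Sirt1 and Sirt2 are NAD-dependent deacetylases that remove the acetyl group from H4 lysine 16, the first mostly in the nucleus and the second mostly in the cytoplasm outside mitosis. Hdac1 and Hdac2 are zinc-dependent deacetylases of the NuRD, SIN3, CoREST and MiDAC complexes. The question put to the arrays was whether RNA of the other acetyltransferases was higher, or RNA of the deacetylases lower, once Kat8 was reduced. Protein levels and acetylation were not measured on these arrays.

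Array medians ranged from 6.22 to 7.96 on the log2 scale. Arrays were grouped into 6 sets by line and experiment, with gaps of at most 0.08 within a set. The medians alone do not separate all the sets: those of PGK12.1 A to C (6.74 to 6.81) and E14 (6.76 to 6.78) overlapped. Differences within an experiment are therefore comparable and levels across sets are not. All 10 ES cell markers tested (Pou5f1, Nanog, Zfp42 and others) lay above the array median on every array. Of 10 feeder fibroblast markers, 3 lay above and 2 below the median on every array. Of 8 primitive endoderm markers, 2 lay above and 2 below it on every array, and of 8 trophectoderm markers, 5 above and 1 below. In bulk RNA, fewer cells of a type and less RNA per cell cannot be told apart.

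Kat8 RNA was lower in each experiment with MOF siRNA. In PGK12.1 it read 7.05, 7.23 and 7.99 on the log2 scale with MOF siRNA, against 8.42, 8.47 and 9.05 in the matched controls, which left 38.7, 42.3 and 48.0% of the control level. The fitted log2 change was -1.22 (SE 0.062, adjusted p = 5.75e-08, limma with Benjamini-Hochberg adjustment over 16283 probesets). Kat8 fell by 0.84 on the log2 scale in WD44, 0.68 in E14 and 0.87 with the double target (adjusted p = 8.81e-05, 0.00044 and 3.24e-05), with 51.8 to 66.4% of the control level left over these 6 experiments. Kat8 did not pass the test with MSL1 siRNA (0.13, adjusted p = 0.531) or NSL1 siRNA (0.073, adjusted p = 0.369). Msl1, a scaffold of the MSL complex, fell by 0.97 on the log2 scale with its siRNA and by 0.46 with the double target (adjusted p = 4.59e-06 and 0.00506). NSL1 is a name used both for Kansl1, a scaffold of the NSL complex, and for Nsl1 of the kinetochore, and the arrays did not settle which was meant. Of the 2 Kansl1 probesets, 1 was lower (-0.24, adjusted p = 0.000874) and the other higher (0.50, adjusted p = 0.00648), and Nsl1 did not pass the test (0.16, adjusted p = 0.0502). The first Kansl1 probeset differed from its controls by -0.31, -0.31 and -0.11, and Nsl1 by 0.17, 0.27 and 0.09. The second Kansl1 probeset also rose after MOF siRNA in PGK12.1 (0.497, adjusted p = 0.0148) and WD44 (0.745, adjusted p = 0.0121). In E14 it read 0.035 (adjusted p = 0.935). The arrays are therefore named by that label.

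The promoter windows of Sirt2, Kat5 and Hdac2 are shown because these 3 members passed the test in the arrays labelled NSL1 under each alternative run. RefSeq windows of GRCm38.p6, from 250 bases before to 50 after the start, were at hand for 6 of the 8 members (not Kat6a and Hdac1). The windows lie at chr7:28766502-28766801 on the plus strand for Sirt2, chr19:5610045-5610344 on the minus strand for the first of 2 Kat5 windows, and chr10:36974294-36974593 on the plus strand for Hdac2. Each is printed 5′ to 3′ on the gene's strand, with matches to the motifs searched in capitals.
Sirt2: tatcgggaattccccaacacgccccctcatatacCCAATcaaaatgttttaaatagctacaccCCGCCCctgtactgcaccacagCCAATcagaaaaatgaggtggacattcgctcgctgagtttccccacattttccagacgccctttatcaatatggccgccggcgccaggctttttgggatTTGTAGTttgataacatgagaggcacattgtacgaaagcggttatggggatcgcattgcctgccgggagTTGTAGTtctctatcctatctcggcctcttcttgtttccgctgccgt
Kat5: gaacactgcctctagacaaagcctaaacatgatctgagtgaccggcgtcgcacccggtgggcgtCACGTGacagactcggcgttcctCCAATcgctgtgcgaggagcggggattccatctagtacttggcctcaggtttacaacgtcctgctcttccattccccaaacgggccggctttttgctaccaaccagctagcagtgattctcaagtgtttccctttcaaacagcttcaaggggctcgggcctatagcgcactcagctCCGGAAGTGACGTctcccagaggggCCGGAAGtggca
Hdac2: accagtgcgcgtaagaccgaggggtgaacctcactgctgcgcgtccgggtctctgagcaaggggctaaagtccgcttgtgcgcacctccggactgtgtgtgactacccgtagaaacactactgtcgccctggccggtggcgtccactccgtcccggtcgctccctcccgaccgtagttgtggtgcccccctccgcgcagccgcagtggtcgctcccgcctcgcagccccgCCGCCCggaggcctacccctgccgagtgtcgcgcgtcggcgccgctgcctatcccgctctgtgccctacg
Both strands were searched for 7 motifs. These were the ZNF143 core spelled ACTACAA, the ETS family site spelled CCGGAAG, the E-box spelled CACGTG, the core of the cAMP response element spelled TGACGT, the GC box spelled GGGCGG, the CCAAT box, and the TATA box spelled TATAAA. In Kat5 the TGACGT match adjoins the first CCGGAAG match without overlap. The Sirt2 window held 2 matches to ACTACAA, both spelled TTGTAGT on the printed strand, along with 2 to CCAAT and 1 to GGGCGG. The ZNF143 core was found in 3.24% of 32851 mouse windows of this length, CCAAT in 37.4% and GGGCGG in 35.7%. The Kat5 window held 2 matches to CCGGAAG, 1 each to CACGTG and TGACGT, and 1 to CCAAT, motifs found in 8.86%, 7.15%, 7.51% and 37.4% of windows. The Hdac2 window, at 69.7% G and C against 50.0% for Sirt2 and 57.0% for Kat5, held 1 match to GGGCGG and none to the other 6 motifs. TATAAA, in 13.6% of windows, matched in none of the 3. No motif was shared by all 3 windows. The matches describe these letters only.

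After MOF siRNA in PGK12.1, 1 of the 8 members passed the test, Kat6a, which rose by a small amount, in a comparison in which 23.4% of all probesets tested were called (9.49% higher and 13.9% lower). With arrays centred on their median, 60.7% of calls were higher, against 40.5% as deposited. The members' median log2 change was 0.013, against 0 over all probesets tested. At an unadjusted p under 0.05, 3 members passed. Kat6a, a histone H3 acetyltransferase of hematopoietic and developmental genes, read 9.16, 9.21 and 9.5 with MOF siRNA, against 8.98, 9 and 9.32 in the matched controls. Each knockdown array was above its own control, by 0.18, 0.21 and 0.18, though the groups overlapped because both arrays of experiment 3 read high. The fitted log2 change was 0.19 (SE 0.063, adjusted p = 0.0398), or 14.1% more RNA. This call was lost in the fit without the block for experiment (adjusted p = 0.328), and when any of 8 arrays was left out (adjusted p 0.0505 to 0.15): each of the 6 of this comparison and the control and NSL1 arrays of experiment D.

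Kat5 stood on the opposite side. It read 8.31, 8.24 and 8.74 with MOF siRNA, against 8.44, 8.42 and 8.84 in the matched controls. Each knockdown array was below its own control, by 0.10 to 0.18, and the groups overlapped. The fitted log2 change of -0.14 (SE 0.052) did not pass the test (adjusted p = 0.0698), and its 95% interval was -0.25 to -0.026. Kat6b (10.48, 10.45 and 10.66, against 10.29, 10.36 and 10.64) was above its control by 0.19, 0.09 and 0.02 and did not pass either (0.10, adjusted p = 0.202). Kat7, which acetylates histones at replication origins and gene bodies, had differences of -0.04, -0.03 and 0.08 and a fitted log2 change of 0.0030 (adjusted p = 0.973).

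None of the 4 deacetylases passed the test after MOF siRNA in PGK12.1. Sirt1 read 10.54, 10.41 and 10.30 with MOF siRNA, against 10.54, 10.67 and 10.52 in the matched controls. It was equal to its control in experiment 1 and below it by 0.26 and 0.22 in the other two (fitted log2 change -0.16, SE 0.065, adjusted p = 0.0895). Without either array of experiment 1 it passed the test (-0.24, adjusted p = 0.0329). Sirt2 read 8.12, 8.14 and 8.66 with MOF siRNA, against 8.23, 8.17 and 8.82 in the matched controls. The differences were small and all below 0 (-0.11, -0.03 and -0.16), with a fitted log2 change of -0.10 (SE 0.07, adjusted p = 0.331). Hdac2 differed by 0.08, -0.03 and 0.06 (0.037, adjusted p = 0.672). The 2 Hdac1 probesets, which share their accessions, differed from each other by at most 0.04 in any experiment, and gave 0.023 and 0.0030 (adjusted p = 0.773 and 0.973). In this comparison 30% of the ES cell markers and 28.6% of the tested trophectoderm markers were called, against 23.4% of all probesets tested. Of 10 ES cell markers 3 fell (Nanog -0.14, Tdgf1 -0.17 and Utf1 -0.25, adjusted p = 0.0427, 0.0298 and 0.00672), with a mean level against the array median of 5.08 to 5.49 in MOF siRNA arrays and 5.19 to 5.64 in controls. Of the trophectoderm markers Gata3 (0.28) and Tfap2c (0.16) rose, with 0.66 to 1.42 in MOF siRNA arrays and 0.59 to 1.28 in controls (adjusted p = 0.00275 and 0.0166). Gata3 and Tfap2c did not pass in the limma fit without the block (adjusted p = 0.27 and 0.457). Their part in the members' values was not tested.

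**Figure D1:**
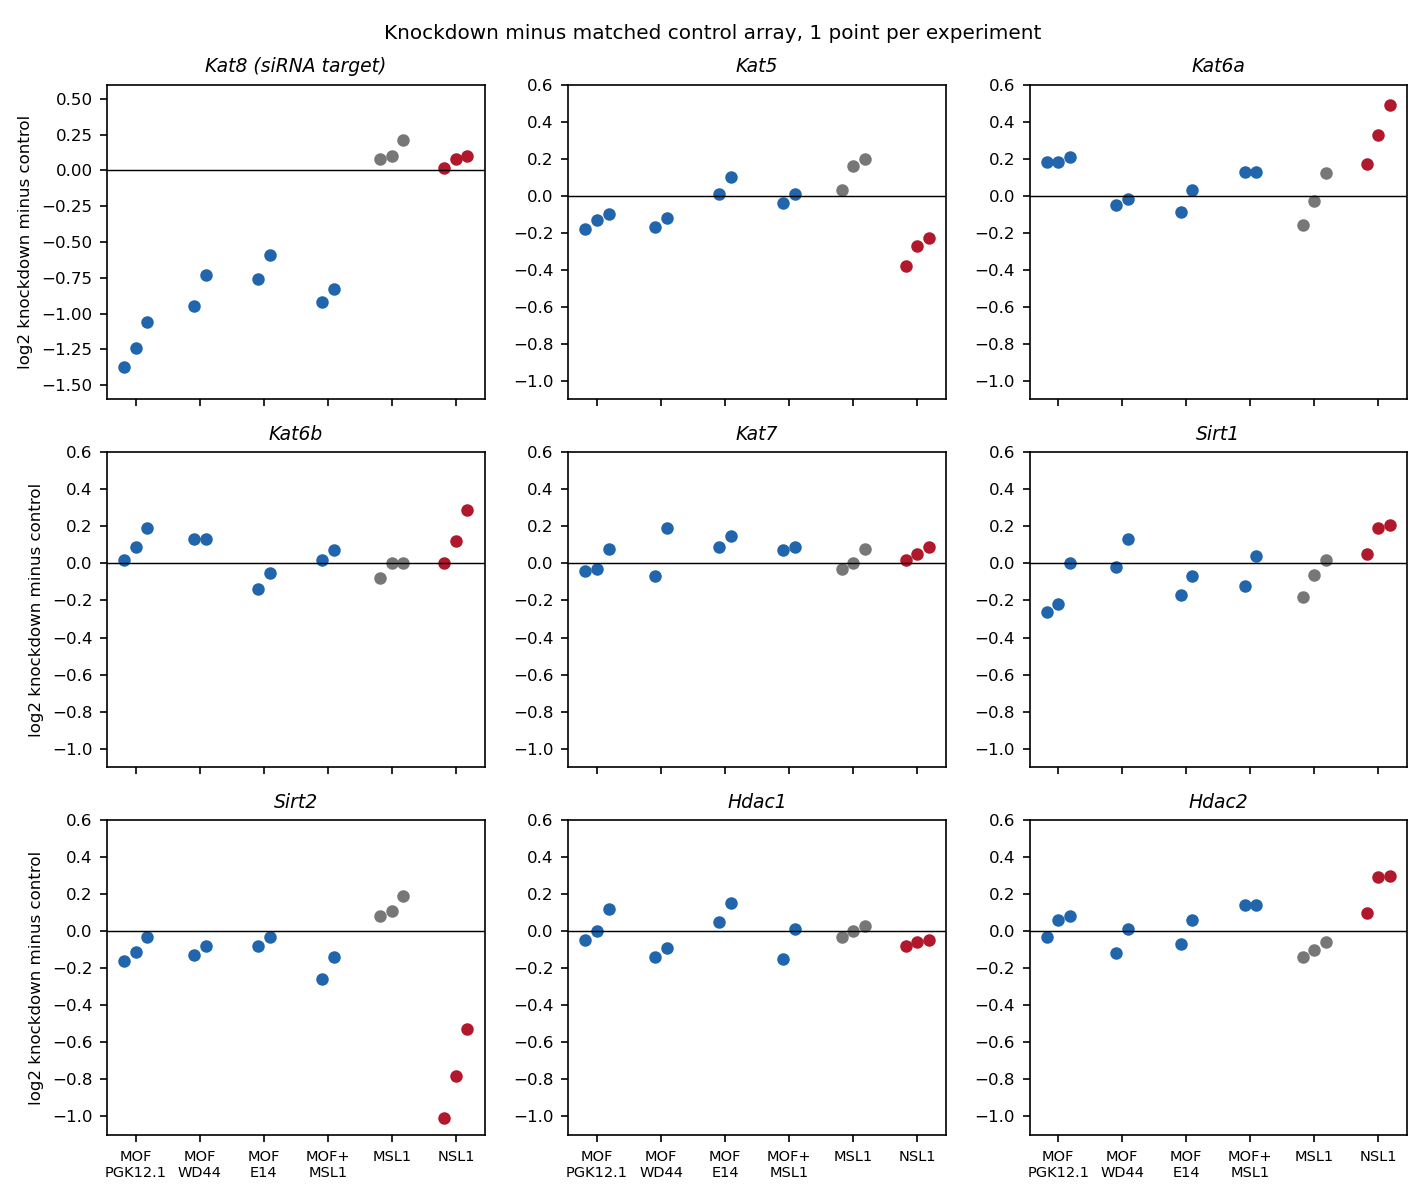
Knockdown minus matched control array on the log2 scale (vertical axis) for Kat8 and the 8 members, by comparison (horizontal axis). Each point is 1 experiment, points of a comparison stand in order of value, and the vertical scale of Kat8 is wider. Kat8 lies between -1.37 and -0.59 in the 9 experiments with MOF siRNA, the members lie between -0.26 and 0.21 in the same experiments, and Sirt2 lies between -1.01 and -0.53 with NSL1 siRNA.

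In the male lines no member passed the test after MOF siRNA by limma, where 12.4% of all probesets tested were called in WD44 and 8.33% in E14. Centring moved the share of calls that were higher to 77.6% in WD44 and 57% in E14, against 35.5% and 43.2% as deposited. At an unadjusted p under 0.05, 1 member passed in WD44 (Kat5) and 0 in E14. In WD44, Kat5 read 10.10 and 10.03 with MOF siRNA, against 10.27 and 10.15 in the matched controls, below each of them (fitted log2 change -0.15, SE 0.064, adjusted p = 0.141). With 2 arrays a side, groups did not overlap for 4 of the 8 members in WD44 (Kat5, Kat6b, Sirt2 and Hdac1), against 56.6% of all probesets tested. Kat6b in WD44 was above its control by 0.13 in both experiments (0.13, adjusted p = 0.204). With each array centred on its median it passed there (0.21, adjusted p = 0.0422), so its call in WD44 depended on the scaling. Hdac1 was below its control in WD44 by 0.09 and 0.14 (-0.12, adjusted p = 0.213). In the same WD44 comparison 4 of 7 tested feeder markers rose (Col1a1 0.38, Col1a2 0.31, Col3a1 0.31 and Col6a1 0.24, adjusted p = 0.00514, 0.0141, 0.0107 and 0.0248). None of these 4 passed in the limma fit without the block (adjusted p = 0.417, 0.533, 0.562 and 0.667). The mean of the 10 feeder markers relative to the array median was -0.19 to -0.18 in MOF siRNA arrays and -0.31 to -0.22 in control arrays, and Postn, Lum and Dcn lay under the filter. Of 7 tested trophectoderm markers, Krt18 (0.45) and Hand1 (0.36) rose, with a mean level of 1.89 to 1.93 in MOF siRNA arrays and 1.77 to 1.85 in controls (adjusted p = 0.00136 and 0.00946). Of 10 ES cell markers 1 rose (Tbx3, 0.345, adjusted p = 0.00343), and of 7 tested endoderm markers 1 fell (Dab2, -0.33, adjusted p = 0.0432). Krt18 kept its call without the block (adjusted p = 0.0167 by limma), while Hand1, Tbx3 and Dab2 did not (0.446, 0.114 and 0.223). The part of these markers in the members' values was not tested.

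In E14, Kat7 read 11.91 and 11.96 with MOF siRNA, against 11.76 and 11.87 in the matched controls, and did not pass the test (0.12, SE 0.063, adjusted p = 0.274). Sirt1 read 10.81 and 10.87 with MOF siRNA, against 10.98 and 10.94 in the matched controls (-0.12, adjusted p = 0.399). In E14 groups did not overlap for 6 of the 8 members (Kat6a and Hdac2 overlapped), against 50.6% of all probesets tested. Hdac1 was above its control by 0.15 and 0.05 (0.10, adjusted p = 0.339), the side opposite to WD44. Kat5 (0.055), Kat6a (-0.030), Kat6b (-0.095), Sirt2 (-0.055) and Hdac2 (-0.0050) had fitted log2 changes within 0.1 of 0. The 95% interval of Kat6a was -0.19 to 0.13 in E14 and -0.20 to 0.13 in WD44. In E14 1 of 10 ES cell markers (Sox2, -0.21) and 1 of 7 tested endoderm markers (Lama1, -0.37) fell (adjusted p = 0.0406 and 0.00503). This is 10% and 14.3% called, against 8.33% of all probesets tested. Sox2 and Lama1 did not pass in the limma fit without the block (adjusted p = 0.169 and 0.608). Mean levels against the array median were 4.93 to 4.94 in MOF siRNA arrays and 4.98 to 4.99 in controls for the ES cell list. For the endoderm list they were 0.51 to 0.57 and 0.53 to 0.59. The part of these markers in the members' values was not tested.

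Averaged over the 3 lines, no member passed the test by limma, where 34.1% of all probesets tested did, and 1 member had an unadjusted p under 0.05 (Kat5). The 95% intervals of this average bound the change on the log2 scale. For the acetyltransferases the highest upper bounds were 0.14 for Kat7 and 0.13 for Kat6a, and Kat5 lay at -0.08 (interval -0.15 to -0.0020, adjusted p = 0.104). For the deacetylases the lowest lower bounds were -0.19 for Sirt2 and -0.17 for Sirt1. Over the same average Kat8 fell by 0.91 on the log2 scale (adjusted p = 1.12e-08), which left 53.1% of its RNA. With arrays centred on their median, which moved the median of all probesets tested by at most 0.08 in any line, Kat7 (0.11, adjusted p = 0.0189) and Kat6b (0.094, adjusted p = 0.0442) passed on average. Without either WD44 array of experiment 1, Kat7 passed too (0.10, adjusted p = 0.045).

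**Figure D2:**
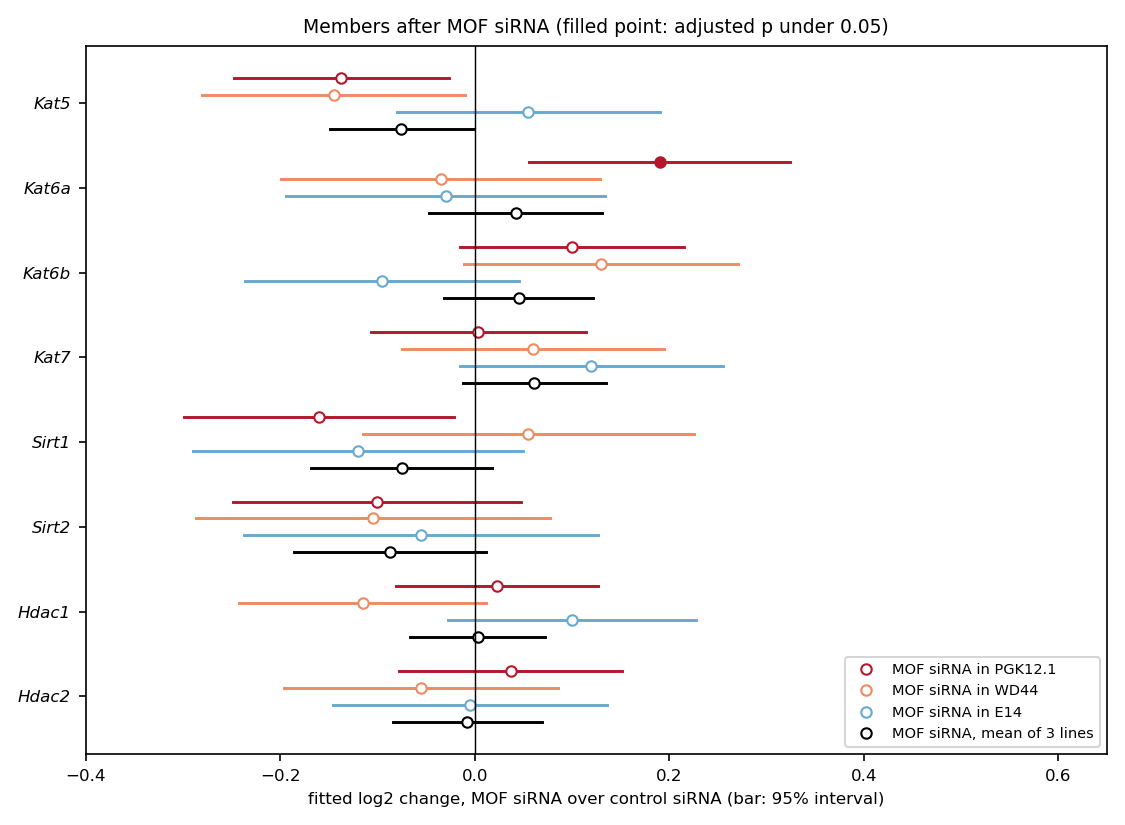
Fitted log2 change of the 8 members after MOF siRNA over control siRNA (horizontal axis) with its 95% interval (bar), in each line and averaged over the lines. The filled point, Kat6a in PGK12.1 at 0.19, is the only one with an adjusted p under 0.05 among those drawn, and the intervals of the average reach no higher than 0.14 and no lower than -0.19.

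Sirt2 was the member whose differences kept 1 sign across MOF knockdowns. They were below 0 in 7 of 7 experiments with MOF siRNA alone (-0.16 to -0.03) and in 9 of 9 with the double target included, though no single comparison and no average passed the test (mean of the lines -0.09, adjusted p = 0.162). With arrays centred on their median the count was 6 of 7 and 8 of 9, with values up to 0.01. Kat5 was below its control in 5 of 7 such experiments, Sirt1 in 5, Kat6a in 3 and Kat7 in 3. Centring left Kat6a below its control in 1 of the 7 and Kat7 in none.

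The effects of MOF siRNA were then compared between lines. No member differed by limma between PGK12.1 and WD44, PGK12.1 and E14, or WD44 and E14, comparisons in which 2.21%, 2.5% and 1.39% of all probesets tested were called, while 1, 3 and 3 members had an unadjusted p under 0.05. Kat6a was higher in PGK12.1 than in WD44 by 0.23 (95% interval 0.014 to 0.44, adjusted p = 0.243) and than in E14 by 0.22 (0.0090 to 0.43, adjusted p = 0.256). Kat6b was lower in E14 than in WD44 by a difference of 0.23 (WD44 minus E14, adjusted p = 0.242), and Hdac1 differed by -0.22 on the same contrast (adjusted p = 0.217). Kat5 differed by -0.19 between PGK12.1 and E14 and by -0.20 between WD44 and E14 (adjusted p = 0.231 and 0.28). The rise of Kat6a in PGK12.1 is thus not shown to be particular to that line. PGK12.1 MOF experiments 1 and 2 had the additional RNAi treatment, and the male lines did not. Kat8 itself fell further in PGK12.1 than in E14 by limma (-0.55, adjusted p = 0.0132), while the difference from WD44 did not pass (-0.38, adjusted p = 0.055). PGK12.1 experiment 3 had the same RNAi treatment as the male lines. Its Kat6a difference was 0.18 with 48.0% of Kat8 left, and this 1 pair was not tested alone. In the contrasts, which average over the PGK12.1 experiments, line, sex, RNAi treatment and depth of knockdown cannot be told apart.

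In the PGK12.1 arrays labelled NSL1, 5 of the 8 members passed the test, or 62.5%, where 39.8% of all probesets tested did (18.4% higher and 21.4% lower). Sirt2 and Kat5 fell and Kat6a, Hdac2 and Kat6b rose. The members' median log2 change was 0.084, against -0.0080 over all probesets tested. Sirt2 read 9.12, 8.83 and 8.64 with NSL1 siRNA, against 9.65, 9.61 and 9.65 in the controls of experiments C, D and E. The groups did not overlap, and the knockdown arrays kept 69.3, 58.0 and 49.6% of the control level. The fitted log2 change was -0.76 (SE 0.067, 95% interval -0.90 to -0.61, adjusted p = 6.55e-07), lower in 3 of 3 experiments. Of all probesets tested, the lowest 10% lay below -0.33.

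Kat5 read 8.84, 8.66 and 8.49 with NSL1 siRNA, against 9.07, 8.93 and 8.87 in the matched controls. All knockdown arrays lay below all 3 controls, and the fitted log2 change was -0.27 (SE 0.05, adjusted p = 0.000502), and its RNA fell by 17.1%. Kat6a read 9.90, 10.07 and 10.31 with NSL1 siRNA, against 9.73, 9.74 and 9.82 in the matched controls. The groups did not overlap and the fitted log2 change was 0.32 (SE 0.061, adjusted p = 0.00055), or 25.1% more RNA. Without the block for experiment, Kat6a was set against all 5 controls of the series, read 0.23 higher and did not pass (adjusted p = 0.0739). Hdac2, the deacetylase that shares most complexes with Hdac1, read 11.19, 11.37 and 11.38 with NSL1 siRNA, against 11.09, 11.07 and 11.08 in the matched controls. The groups did not overlap (0.21, SE 0.052, adjusted p = 0.0039). Against the matched controls, groups did not overlap for 4 of the 8 members and for 28.9% of all probesets tested. The controls of experiments A and B read 9.99 and 10.05 for Kat6a and 8.81 and 8.9 for Kat5, so that the NSL1 array of experiment C lay within the range of all 5 controls for both genes. Hdac1 did not pass (-0.064 and -0.067 on its 2 probesets, adjusted p = 0.318 and 0.321).

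Kat6b was equal to its control in experiment C and above it by 0.12 and 0.29 in D and E. It passed narrowly (0.14, SE 0.052, adjusted p = 0.0465) and kept the call with 6 of 27 arrays left out in turn (adjusted p up to 0.33, without the NSL1 array of experiment E). Sirt1 was above its control by 0.05, 0.19 and 0.21 and did not pass (0.12, adjusted p = 0.138). Kat7 had differences of 0.09, 0.05 and 0.02 (0.044, adjusted p = 0.532). Some lineage markers were called in the same comparison, where 39.8% of all probesets tested were. The shares were 28.6% of the endoderm, 20% of the ES cell, 57.1% of the trophectoderm and 28.6% of the feeder markers tested. Gata6 (0.37) and Dab2 (0.45) of the 7 tested primitive endoderm markers rose, Utf1 (-0.25) and Tdgf1 (-0.19) of the 10 ES cell markers fell, and of the 7 tested trophectoderm markers Eomes (0.53) and Gata3 (0.33) rose while Krt18 (-0.25) and Tfap2c (-0.14) fell. Of the 7 tested feeder markers Pdgfrb (-0.34) and Thy1 (-0.23) fell. Utf1, Eomes, Gata3 and Tfap2c lost their calls in the limma fit without the block (adjusted p = 0.136, 0.0912, 0.466 and 0.125). The other markers named here kept theirs. The mean of the ES cell markers relative to the array median was 4.99 to 5.37 in NSL1 arrays and 5.09 to 5.47 in controls, that of the endoderm markers 0.17 to 0.24 and 0.05 to 0.19, that of the trophectoderm markers 1.09 to 1.29 and 1.09 to 1.31, and that of the feeder markers -0.53 to -0.25 and -0.48 to -0.24. Their part in the members' values was not tested.

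**Figure D3:**
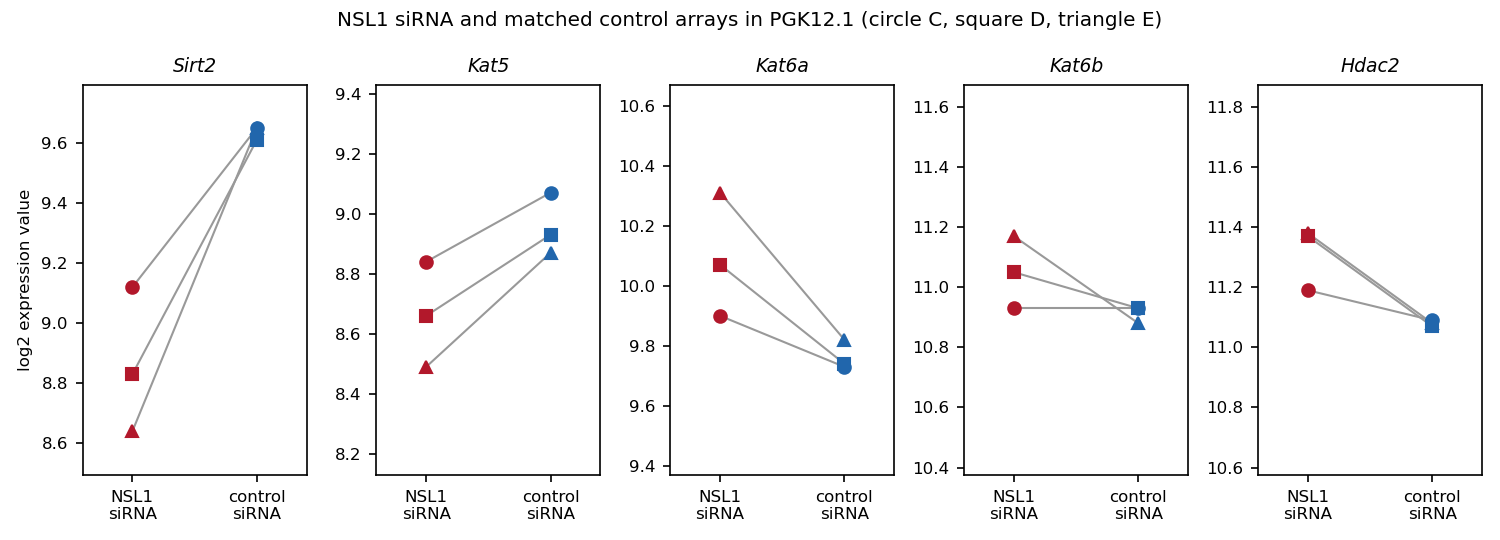
Log2 expression (vertical axis) of the 5 members that passed the test, in NSL1 siRNA arrays (left) and their matched control arrays (right) of PGK12.1, with lines joining arrays of an experiment and 1 scale width in each panel. The 3 NSL1 arrays lie below the 3 matched controls of experiments C, D and E for Sirt2 and Kat5 and above them for Kat6a and Hdac2, while for Kat6b the array of experiment C equals its control.

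The NSL1 effect was set against the MOF effect in PGK12.1 as a difference of effects, for which 16% of all probesets tested were called (8.22% higher and 7.78% lower). Of the 8 members 2 passed. Sirt2 was lower after NSL1 siRNA than after MOF siRNA by a log2 difference of -0.66 (SE 0.097, 95% interval -0.86 to -0.45, adjusted p = 0.000795). Sirt1 was higher by 0.28 (SE 0.091, adjusted p = 0.0461), a call that held with 12 of 27 arrays left out in turn (adjusted p up to 0.16) and not without the block (adjusted p = 0.289). Kat5 (-0.13, adjusted p = 0.225), Kat6a (0.13, adjusted p = 0.321) and Kat6b (0.038, adjusted p = 0.771) did not pass, with 95% intervals of -0.29 to 0.02, -0.053 to 0.32 and -0.12 to 0.20. Hdac2 did not pass (0.18, adjusted p = 0.118) but did so without the NSL1 array of experiment C (0.26, adjusted p = 0.0254). MOF experiments 1 and 2 had the additional RNAi treatment and the NSL1 experiments did not.

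MSL1 siRNA moved few genes, with 0.184% of all probesets tested called, and no member passed by limma (1 had an unadjusted p under 0.05, Kat5). Sirt2 read 9.68, 9.72 and 9.76 with MSL1 siRNA, against 9.60, 9.53 and 9.65 in the matched controls, above each of them (0.08, adjusted p = 0.822). Kat5 was above its controls by 0.16, 0.20 and 0.03 (0.11, adjusted p = 0.488), and Hdac2 below them by 0.06 to 0.14 (-0.07, adjusted p = 0.757). These 3 genes thus lay on the side opposite to the NSL1 arrays without passing the test. With MOF and MSL1 siRNA together 6.44% of all probesets tested were called, and again no member passed (none had an unadjusted p under 0.05). Sirt2 read 9.47 and 9.38 with both siRNAs, against 9.61 and 9.65 in the matched controls (-0.13, SE 0.081, adjusted p = 0.388). Kat6a was above its controls by 0.13 in both experiments (0.085, adjusted p = 0.567) and Hdac2 by 0.14 (0.10, adjusted p = 0.4). The fitted values differ from the mean of the differences here because the fit also uses the NSL1 arrays that share these controls. No member differed between the double target and MOF alone (0 of 8, also at an unadjusted p under 0.05), where 0.276% of all probesets tested were called.

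The members' values were also set against each other over all 15 knockdown minus control differences of the 12 experiments. This is a description, since experiments C, D and E contribute shared controls and the NSL1 arrays span the widest range. Sirt2 ran with Kat5 (Pearson r = 0.81) and against Hdac2 (r = -0.87) and Kat6a (r = -0.83), and Kat6a ran with Hdac2 (r = 0.83). Kat7 ran with none of them (r = -0.40 to 0.19). Among 15286 other probesets with 1 symbol, the genes most like Sirt2 over the 15 differences were Ikbkb (r = 0.979), a kinase subunit of NF-kB signalling, and Pxmp4 (r = 0.972), a peroxisomal membrane protein. Kat5 was most like Mlx (r = 0.959) and Mknk1 (r = 0.946), a transcription factor partner and a MAP kinase target. Kat6a was most like Zbtb1 (r = 0.952) and Tbl1xr1 (r = 0.95), Kat6b like Cobl (r = 0.909) and Man2a1 (r = 0.891), and Hdac2 like Fbxo28 (r = 0.94) and Birc2 (r = 0.937).

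The Sirt2 start lies 108 bases from that of Nfkbib, an inhibitor of NF-kB, on the other strand. Nfkbib was looked at after the Sirt2 values had been seen. With NSL1 siRNA it was below its controls by 0.04 to 0.21 and did not pass the test (-0.13, SE 0.053, adjusted p = 0.0597). With MOF siRNA it fell in PGK12.1 (-0.23, adjusted p = 0.00677) and WD44 (-0.27, adjusted p = 0.021), and in E14 it read 0.14 (adjusted p = 0.226). The neighbours were thus called in different comparisons, Sirt2 with NSL1 siRNA and Nfkbib with MOF siRNA; the difference between the genes was not tested. Kat7 lies 170 bases from the start of Gm11520, which was not analysed here.

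Genes that work with the members in complexes, or that share their enzyme classes, were taken from 8 lists, whose counts of calls stand against 39.8% of all probesets called with NSL1 siRNA and 23.4% after MOF siRNA in PGK12.1. Of 17 partners of Kat5 in the TIP60 complex, 6 rose and 3 fell in the NSL1 arrays, or 52.9% (median log2 change 0.10, against -0.0080 over all probesets tested). Epc1 and Epc2, the scaffolds that hold the Kat5 catalytic module, rose by 0.55 and 0.33 on the log2 scale (adjusted p = 1.35e-06 and 0.00052), while the subunits Dmap1 and Ruvbl1 fell by 0.54 and 0.31 (adjusted p = 3.49e-05 and 0.000404). After MOF siRNA in PGK12.1, 2 rose and 1 fell, or 17.6%, with Epc1 at 0.30 (adjusted p = 0.00117). No partner passed by limma in WD44, E14, MSL1 or double-target arrays, where 3, 3, 1 and 2 of the 17 had an unadjusted p under 0.05. Of 9 scaffolds and readers of Kat6a, Kat6b and Kat7, 3 rose and 1 fell with NSL1 siRNA (44.4%), among them Meaf6 (0.20, adjusted p = 0.00209), a subunit shared with TIP60, and Ing4 (-0.36, adjusted p = 0.000625), a reader of methylated H3. Brpf3 rose with the double target (0.25, adjusted p = 0.0121) and Jade2 fell in WD44 (-0.37, adjusted p = 0.00957). In the limma fit without the block, Brpf3 kept its call (adjusted p = 0.016). Jade2 in WD44 and Meaf6 with NSL1 siRNA did not (0.2 and 0.104).

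Of 10 other nuclear acetyltransferases, 5 rose and 0 fell with NSL1 siRNA, or 50% called, where 39.8% of all probesets tested were called and 18.4% were higher (median log2 change 0.15). Kat2b (PCAF) read 0.65, the coactivators Ep300 and Crebbp 0.39 each and Ncoa3 0.19 (adjusted p = 0.000117, 9.21e-05, 9.57e-05 and 0.00246). After MOF siRNA in PGK12.1, 1 rose and 1 fell, or 20% (median 0.02). By limma none passed in WD44 (1 had an unadjusted p under 0.05), and 1 fell in E14 (medians -0.07 and -0.05). Of 5 other sirtuins, Sirt4, a mitochondrial member, rose with NSL1 siRNA (0.30, adjusted p = 0.00312) and Sirt7, a nucleolar deacetylase, fell (-0.16, adjusted p = 0.048). Sirt4 also rose after MOF siRNA in E14 (0.33, adjusted p = 0.0364) and with the double target (0.36, adjusted p = 0.0196). The limma fit without the block kept Sirt4 with NSL1 siRNA and the double target (adjusted p = 0.00476 and 0.0187). It lost Sirt4 in E14 (0.458) and Sirt7 with NSL1 siRNA (0.0507).

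Of 8 tested other zinc-dependent deacetylases, 2 rose and 3 fell with NSL1 siRNA, or 62.5% against 39.8% of all probesets tested (median log2 change -0.12), and Hdac9 lay under the filter. Hdac4 rose by 0.82 and Hdac8, Hdac3 and Hdac10 fell by 0.77, 0.43 and 0.43 on the log2 scale (adjusted p = 7.2e-07, 1.84e-07, 2.25e-05 and 1.47e-05). Hdac3 is the catalytic subunit of the NCoR and SMRT corepressors. After MOF siRNA in PGK12.1, 1 rose and 3 fell, or 50% against 23.4% of all probesets tested, among them Hdac8 (-0.31, adjusted p = 0.00234) and Hdac3 (-0.17, adjusted p = 0.0467). In WD44 Hdac3 fell too (-0.25, adjusted p = 0.0354) while Hdac4 (0.33, adjusted p = 0.0336) and Hdac7 (0.26, adjusted p = 0.0101) rose. With the double target Hdac4 rose (0.36, adjusted p = 0.0244) and Hdac7 fell (-0.24, adjusted p = 0.0159). Without the block for experiment none of these WD44 and double-target calls passed by limma. In WD44 the adjusted p was 0.119 for Hdac3, 0.607 for Hdac4 and 0.802 for Hdac7. With the double target it was 0.934 for Hdac4 and 0.0577 for Hdac7. After MOF siRNA in PGK12.1, Hdac8 and Hdac3 lost their calls too (0.0925 and 0.0853). Hdac4, Hdac8, Hdac3 and Hdac10 kept theirs with NSL1 siRNA. In E14 none of the 8 passed by limma (2 had an unadjusted p under 0.05).

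Of 12 NuRD partners of Hdac1 and Hdac2, 3 rose and 0 fell in the NSL1 arrays, and likewise 3 and 0 in the MOF arrays of PGK12.1. This is 25% in each, below the 39.8% of all probesets called with NSL1 siRNA and near the 23.4% called after MOF siRNA, with Mbd3 at 0.23 after MOF siRNA (adjusted p = 0.0107). In E14 2 rose, Cdk2ap1 (0.31, adjusted p = 0.00907) and Mta1 (0.19, adjusted p = 0.0407), and in WD44 Mta3 fell (-0.23, adjusted p = 0.0196). The calls of Cdk2ap1, Mta1 and Mta3 were lost without the block (adjusted p = 0.0917, 0.211 and 0.31 by limma). Of 13 SIN3 partners, 4 rose and 2 fell with NSL1 siRNA (46.2%), with Brms1 at -0.59, Suds3 at -0.32 and Ing1 at 0.23 (adjusted p = 4.46e-06, 0.000451 and 0.00353). After MOF siRNA in PGK12.1, Sap130 fell (-0.24, adjusted p = 0.00535) and 1 other rose (15.4% called). Of 7 CoREST and MiDAC partners, 2 rose and 1 fell with NSL1 siRNA (42.9%), among them Dnttip1 (-0.34, adjusted p = 0.000219) and Mideas (0.18, adjusted p = 0.0125), subunits of MiDAC. After MOF siRNA in PGK12.1, Rcor1, the CoREST scaffold, fell (-0.16, adjusted p = 0.037) and Hmg20b rose (0.16, adjusted p = 0.0365), or 28.6% called. Hmg20b also rose in WD44 (0.22, adjusted p = 0.0338), E14 (0.30, adjusted p = 0.0112) and double-target arrays (0.21, adjusted p = 0.0438). It rose with NSL1 siRNA too (0.20, adjusted p = 0.00405) and did not pass with MSL1 siRNA (0.097, adjusted p = 0.562). In the limma fit without the block, Hmg20b passed with the double target and NSL1 siRNA (adjusted p = 0.017 and 0.00281). There it did not pass after MOF siRNA in PGK12.1, WD44 or E14 (0.137, 0.189 and 0.0809). The calls of Rcor1 and Mideas were also lost in that fit (0.569 and 0.167).

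**Figure D4:**
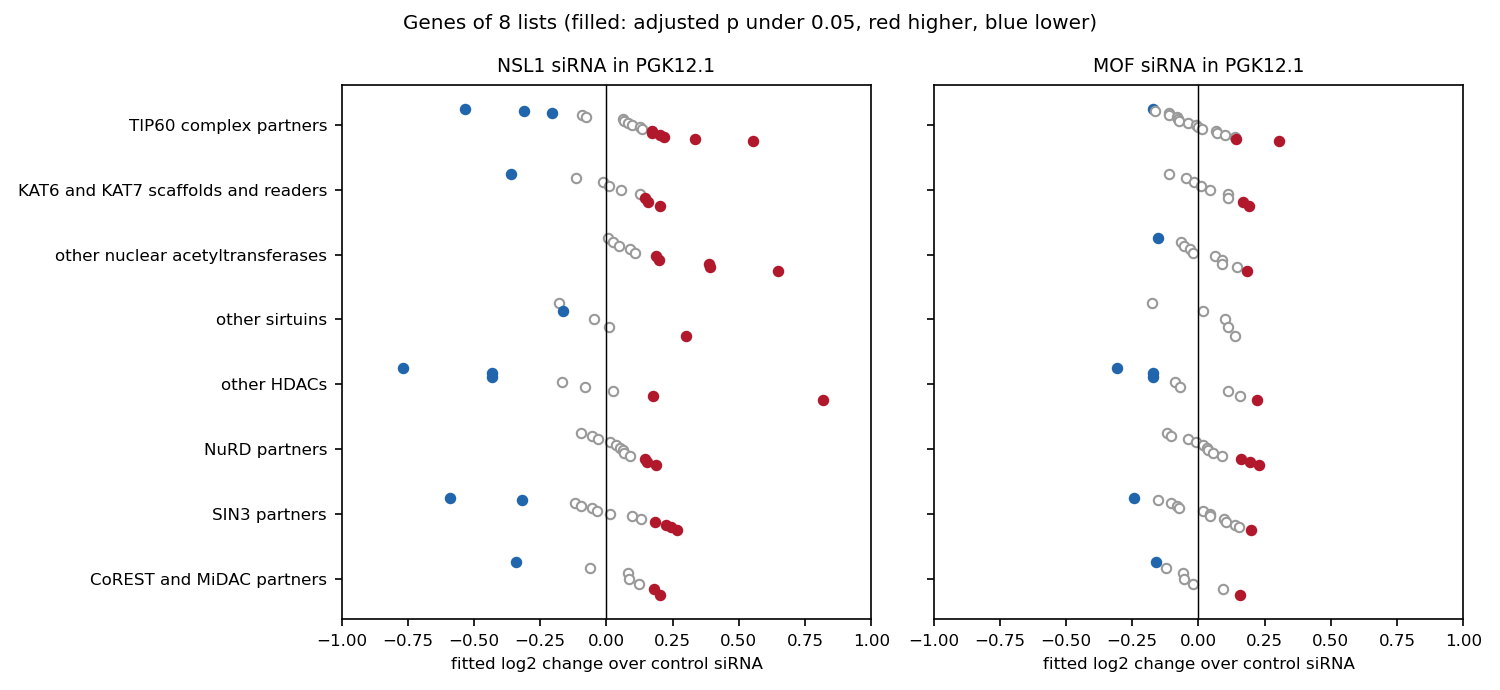
Fitted log2 change over control siRNA (horizontal axis) of each tested gene in 8 lists (rows), for NSL1 siRNA (left) and MOF siRNA (right) in PGK12.1. Filled points passed the test (red higher, blue lower) and open points did not. Values reach from -0.77 (Hdac8) to 0.82 (Hdac4) with NSL1 siRNA, and of the 10 other nuclear acetyltransferases 5 are filled (50%, against 39.8% of all probesets tested) and none is blue.

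The level of a member among control cells was read as its log2 value minus the array median, as a description with no test. No order across groups is read from these levels, because subtracting the median did not bring the sets of arrays to 1 scale. The mean of the 10 ES cell markers on this measure was 4.04 to 4.16 in WD44 controls, 4.98 to 4.99 in E14 controls and 5.07 to 5.64 in PGK12.1 controls. Sirt2 averaged 2.99 ± 0.22 in the PGK12.1 controls A to E (SD, n = 5), 2.61 ± 0.02 in WD44 (n = 2), 2.35 ± 0.06 in E14 (n = 2) and 2.09 ± 0.23 in the PGK12.1 controls of the MOF series (n = 3). The highest and the lowest of these means came from controls of the same line. Hdac2 averaged 4.47 ± 0.19, 3.62 ± 0.03, 4.36 ± 0.06 and 5.22 ± 0.07 in the same 4 groups. Group means ran between 2.07 and 2.32 for Kat5, 2.43 and 3.51 for Kat6a, 3.12 and 4.35 for Kat6b, 4.81 and 5.31 for Kat7, 3.61 and 4.26 for Sirt1, and 5.06 and 5.48 for Hdac1.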

How the data were processed

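Each probeset has 1 log2 expression value per array, deposited by the authors and made in Affymetrix Expression Console with RMA, per the submitters' processing notes; tool versions and build are not given in the sources used here. Symbols came from the platform annotation, updated through RefSeq genes of GRCm38.p6. Tests covered the 16283 probesets with a symbol and a mean of at least 6. All 27 arrays entered 1 limma 3.58.1 fit (R 4.3.3) with a term per experiment, leaving 9 residual degrees of freedom, and calls had a Benjamini-Hochberg adjusted p under 0.05. Pairing follows the titles, which give every experiment a control. Paired arrays' deviations from group means correlated at 0.629 to 0.867 in the PGK12.1 MOF series and 0.545 to 0.783 with NSL1 siRNA. They correlated at -0.046 to 0.358 with MSL1 siRNA, -0.097 to 0.262 with the double target, 0.011 in WD44 and 0.129 in E14. The PGK12.1 MOF groups include arrays with and without the additional RNAi treatment. The NSL1 group joins experiment C with D and E, which belong to different sets of arrays (control medians 6.77, 6.39 and 6.42). In both series the correlations therefore do not separate pairing by experiment from differences between sets. With 2 arrays a side, both experiments of WD44, and likewise of E14, give the same value by construction. Replicates are RNAi treatments of a line, so p-values measure the spread between treatments. That spread was pooled over all lines, and most of the 9 residual degrees of freedom come from PGK12.1. The p-values of WD44 and E14 therefore rest mostly on spread between treatments of another line. Fitted on the arrays of WD44 or E14 alone, limma called 0 probesets in each. Arrays have no read depth, and their number limits precision.

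The members, lists and tests were chosen with earlier results of these data known. Named genes were the members, the siRNA targets, up to 4 genes per list with the smallest p among those called, and the 2 genes most correlated with each called member. Col6a1, Thy1, Hand1, Nanog, Hdac7 and Nfkbib were named after their values were seen. The fit was tested on simulated data. Alternatives were a fit without the block (with a term for arrays treated 2 times), median centring, cyclic loess, 2 other filters, a trended robust prior, array weights, arrays of 1 line alone, and each array left out.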

Additional observations from a re-analysis of the deposited data

How the results depend on the processing

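The 8 alternatives and the 27 arrays left out in turn gave 3328 member values, of which 3263 stayed on the same side of the threshold, 54 lost a call, 11 gained one and 0 reversed. The main fit held only 1 member call for MOF in PGK12.1, 5 for NSL1 and 2 for NSL1 minus MOF. Most of these values therefore had no call to lose. Over the 27 arrays left out, Kat6b with NSL1 siRNA lost its call in 21 runs and Sirt1 for NSL1 minus MOF in 15. Kat6a after MOF siRNA in PGK12.1 lost it in 8. Some runs repeat each other, since leaving out either array of an experiment with 1 knockdown gives the same fit. In the arrays labelled NSL1, the calls of Sirt2, Kat5 and Hdac2 stood under each alternative run. The cause of the changes below was not tested. With no replicate block, which drops the pairing by experiment, the count of members called went to 0 for MOF in PGK12.1 (main count 1) and to 1 for NSL1 minus MOF (main count 2). It changed no other count of members by over 1.5 times. The same 2 counts were 0 and 1 with no filter and with only the arrays of the line. Array weights gave 0 for MOF in PGK12.1. Median centring gave 1 for WD44 and 2 for the mean of 3 lines, where the main counts were 0. Leaving out arrays gave 0 to 1 for MOF in PGK12.1, 0 to 1 for the mean of 3 lines and 1 to 3 for NSL1 minus MOF. Kat6a after MOF siRNA in PGK12.1 had adjusted p = 0.0622 with no filter, 0.0612 with array weights and 0.0561 within the line. Kat6b with NSL1 siRNA had 0.0789 with no filter and 0.0626 within the line. Array weights added Sirt1 (0.00214) and Hdac1 (0.0441) with NSL1 siRNA.

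Counts of all probesets called, with and without the block, were 3816 and 1250 for MOF in PGK12.1, 2013 and 99 for WD44, 1357 and 109 for E14, 1048 and 1612 for the double target, 30 and 10 for MSL1, and 5555 and 1974 for the mean of 3 lines. MSL1 counts under the other settings lay between 15 and 267, and array weights gave 9722 for NSL1 (main 6480) and 2435 for the double target. Without a filter the double target gave 690 and E14 857. Fitted on the arrays of WD44 or E14 alone, limma called 0, with 3458 and 3224 at an unadjusted p under 0.05. Leaving out 1 array gave 2288 to 4040 for MOF in PGK12.1, 161 to 2243 for WD44, 55 to 1485 for E14, 130 to 1236 for the double target and 3 to 74 for MSL1. Median centring moved the share of calls that were higher to 69.5% for the mean of 3 lines, 40.1% for PGK12.1 minus WD44, 64.2% for WD44 minus E14 and 40.5% for the double target minus MOF, against 42.5%, 59.2%, 38.9% and 62.2% as deposited.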
